A study of Mus musculus with 12 samples.

Results

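Polyamines are small positively charged molecules, putrescine, spermidine and spermine, that growing cells need for protein synthesis. The 10 genes described here encode the enzymes that make and break down polyamines and the proteins that control the first step: *Odc1*, *Amd1*, *Srm*, *Sms*, *Sat1*, *Smox*, *Paox*, *Azin1*, *Oaz1* and *Oaz2*. They were taken by symbol from a table of read counts of 55450 mouse genes, and all 10 passed the filter on low counts that left 19276 genes to test, with at least 318 reads each in every library. The set was chosen by its pathway, with *Amd1* selected on its measured rise after 2 wks in these same libraries, so the values of *Amd1* are a description and it was tested in no comparison. The other 9 were tested.

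The RNA came from tibialis anterior (TA), a fast muscle of the lower leg, of wild-type (WT) mice of the 129Pas genetic background at E18.5 (late fetal muscle, just before birth) and at 2 and 7 wks of age. Each age had 4 mice, with 1 library per mouse and 12 libraries in all, and no gene was altered and no treatment given in any group. The comparisons ask how the muscle's RNA changed from late fetal life to young adulthood. Libraries held between 63018968 and 123449246 reads counted in genes.

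Ornithine decarboxylase (ODC1) makes putrescine from ornithine. S-adenosylmethionine decarboxylase (AMD1) makes the donor of the aminopropyl groups that spermidine synthase (SRM) adds to putrescine and spermine synthase (SMS) adds to spermidine. In the other direction, SAT1 acetylates spermidine and spermine, PAOX oxidises the acetylated forms, and SMOX oxidises spermine directly. Antizymes (OAZ1 and OAZ2) bind ODC1, send it to the proteasome and hold back polyamine uptake, while the antizyme inhibitor AZIN1 binds antizyme in place of ODC1. In skeletal muscle, *Smox* is known to fall when muscle wastes.

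Short pieces of sequence are shown for sites known to control RNAs of the pathway and for paralogs that share sequence. Control itself was not measured. Antizyme mRNA is read with a shift of frame that polyamines promote, at a stop codon inside the coding sequence. The stretches around that stop in *Oaz1* and *Oaz2* (GENCODE vM39 transcripts, 30 bases) were as follows, with the last codon read in the first frame and the stop codon in capitals.
Oaz1: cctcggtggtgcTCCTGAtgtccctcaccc
Oaz2: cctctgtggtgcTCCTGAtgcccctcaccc

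The mRNA of *Amd1* begins with a small open reading frame through which polyamines are known to hold back its translation. The same 21 bases open the transcripts of *Amd1* (chr10:40302155-40302175, minus strand, from base 14 of the transcript) and of its paralog *Amd2* (chr10:35711860-35711880, minus strand, from base 12), in RefSeq on GRCm38.p6. Start and stop codons are in capitals.
Amd1 and Amd2: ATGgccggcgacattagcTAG

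*Amd1* and *Amd2* were alike well beyond this frame. The coding sequence of *Amd1* holds 1389 bases and that of *Amd2* 1002, and 387 bases of *Amd1* have no partner in *Amd2*. Over the 1002 aligned bases they differed at 1 base (GENCODE vM39, 99.9% identical). The 60 coding bases around it, 766 to 825 counted from the A of the start codon, hold the difference G796C, shown in capitals, where the first letter is the base of *Amd1*.
Amd1: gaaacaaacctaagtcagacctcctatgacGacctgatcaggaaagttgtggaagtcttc
Amd2: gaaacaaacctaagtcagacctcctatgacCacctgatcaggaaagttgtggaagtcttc

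Of all 100-base stretches of *Amd2* transcripts, as long as 1 read, 72.9% were also found in *Amd1*, and 35.8% of those of *Amd1* were found in *Amd2* or in Amd pseudogenes. The sequences upstream of the genes were not alike. The 250 bases before the RefSeq start of *Amd1* (chr10:40302189-40302438 of GRCm38.p6, minus strand) are shown with the GC box GGGCGG and the TATA-like site TATATAA in capitals, the latter running into its own reverse complement. The window of *Amd2* (chr10:35711892-35712141, minus strand) has only CCAAT, here on the opposite strand as ATTGG, of the 8 motifs searched. That of *Smox* (chr2:131491612-131491861, plus strand), the gene that rose most among the 9 tested, has 6 GC boxes.
Amd1: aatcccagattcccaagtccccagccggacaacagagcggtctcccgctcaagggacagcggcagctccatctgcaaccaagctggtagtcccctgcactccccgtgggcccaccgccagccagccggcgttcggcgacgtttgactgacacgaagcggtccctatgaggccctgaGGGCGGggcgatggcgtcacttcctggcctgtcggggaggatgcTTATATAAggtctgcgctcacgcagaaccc
Amd2: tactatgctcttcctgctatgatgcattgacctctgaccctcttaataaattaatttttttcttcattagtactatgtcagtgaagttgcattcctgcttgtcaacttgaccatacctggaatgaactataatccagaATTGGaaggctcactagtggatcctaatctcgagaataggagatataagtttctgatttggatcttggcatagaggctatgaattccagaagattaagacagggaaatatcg
Smox: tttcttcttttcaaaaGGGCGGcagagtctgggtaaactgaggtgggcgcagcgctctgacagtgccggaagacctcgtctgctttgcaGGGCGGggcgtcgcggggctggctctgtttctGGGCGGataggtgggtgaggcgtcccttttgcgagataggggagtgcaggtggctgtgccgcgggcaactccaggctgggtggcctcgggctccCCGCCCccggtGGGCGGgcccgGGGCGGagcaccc

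RefSeq gave a window for 8 of the 10 genes, all but *Srm* and *Azin1*. The 8 motifs were searched on both strands, exactly as spelled here. GGGCGG stood in 6 of the 8 windows (*Amd1*, *Odc1*, *Sat1*, *Smox*, *Paox* and *Oaz2*), against 32.7% of the 32851 mouse windows of this length. TATATAA stood in that of *Amd1* alone, against 3.04% of all windows, and 3 motifs in none of the 8, the TATA box TATAAA (12.4% of all windows), the E-box CAGCTG (13%) and the cAMP response element TGACGTCA (1.55%). CACGTG, the E-box that MYC and MAX bind, stood in that of *Sms* (6.02% of all windows), CCAAT in those of *Oaz1* and *Sms* (33.8%), and TGTTCT, a half-site of the glucocorticoid response element, in those of *Oaz2* and *Sat1* (16.1%). These matches describe letters and do not show a factor at work.

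Some facts about the libraries bear on every value that follows. Of the reads, 8.38 to 11.3% (E18.5), 32.2 to 35.3% (2 wks) and 36.3 to 37.7% (7 wks) fell in the 20 most abundant genes, and TMM normalization, which scales libraries on genes that change little, gave factors of 1.62 to 1.77, 0.81 to 0.946 and 0.667 to 0.699. Scaled to the total count instead, the median of all tested genes fell by 1.02 on the log2 scale in the first interval, E18.5 to 2 wks, and by 0.38 in the later, against 0.09 and 0.03 with TMM, and 2550 genes rose and 11923 fell in the first interval, against 6074 and 6594 with TMM. Libraries also differed in how levels followed the GC content of the transcript. The slope of log2 CPM (reads per 1000000 reads) over 10 percentage points of GC was -1.11 in E18.5 replicate 1 and -0.56 to -0.09 in the other E18.5 libraries, 0.36 to 0.50 at 2 wks and -0.17 to 0.46 at 7 wks, so E18.5 replicate 1 stood apart.

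The muscle fibre markers *Acta1*, *Ckm*, *Ttn*, *Des*, *Tnnt3* and *Mylpf* were present at all ages, with a summed level of 12132 to 21562 CPM at E18.5, then 111047 to 134703 (2 wks) and 111168 to 149636 (7 wks). All 6 rose to 2 wks. Markers of other cells moved with age too. The 6 genes of proliferating cells summed to 428 to 631, 99.6 to 201 and 21.7 to 32.4 CPM at the 3 ages and all fell in both intervals, the 6 of fibroblasts to 6383 to 11086, 3335 to 4953 and 803 to 2853 (4 fell, then 3), and the 6 of macrophages to 162 to 203, 77.2 to 110.4 and 21.2 to 69.6 (2 fell and 1 rose, then 5 fell). The 5 nerve genes went from 146 to 245 and 133 to 628 to 100.2 to 152 CPM (2 rose and 1 fell, then 4 fell), and the 5 endothelial genes from 312 to 468 to 724 to 876 and 427 to 716 (3 rose, then 3 fell). The 7 red blood cell genes summed to 242 to 1026, 146 to 756 and 92.0 to 129.7 CPM (2 fell, then 5) and the 5 adipocyte genes to 176 to 2637, 420.4 to 485 and 310 to 413 (4 fell to 2 wks). Epidermal genes reached at most 49.0 CPM and those of cartilage and bone at most 143, both in E18.5 libraries. No defining marker of the fibre was at 0, and *Dsg3* (epidermis) and *Matn1* (cartilage) were at 0 in all libraries of at least 1 age. In such bulk RNA, fewer cells of a type and less RNA per cell cannot be told apart, and the part of these shifts in the polyamine genes was not tested.

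*Amd1* (ENSMUSG00000075232, chromosome 10 from 40162797 to 40178185, minus strand, GRCm39) stood at a like level at E18.5 and 2 wks and was far higher at 7 wks. In TMM-normalized CPM, with replicates 1 to 4 in order, its RNA was at 64.5, 36.9, 39.96 and 38.5 in the E18.5 libraries, 37.4, 42.97, 69.4 and 52.98 in those of 2 wks and 880.3, 604, 634 and 593 in those of 7 wks. The libraries of the first 2 ages overlapped, and each 7 wks library was far above all others. The fitted log2 fold change was 3.74 ± 0.26 (SE) from 2 to 7 wks, or 13.4-fold, and 0.17 ± 0.23 from E18.5 to 2 wks. Scaled to the total count, the second value was -0.77 and the first 3.41, and with the GC trend removed they were 0.67 and 3.58. The highest library at E18.5 and at 7 wks was replicate 1 in either case.

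*Amd2* (ENSMUSG00000063953, chromosome 10 from 35584671 to 35587888, minus strand, GRCm39) followed *Amd1* at a low level. It had 2.77, 1.72, 1.72 and 1.67 CPM in the E18.5 libraries, 1.91, 2.12, 3.09 and 2.69 in those of 2 wks and 36.7, 24.1, 19.6 and 23.9 in those of 7 wks, a log2 fold change of 3.41 ± 0.26 in the later interval. Its counts were 4.30 to 4.64% of those of *Amd1* in the fetal libraries, 4.46 to 5.11% in those of 2 wks and 3.10 to 4.17% in those of 7 wks, and each 7 wks library lay below all earlier ones in this share. Reads from *Amd2* and reads of *Amd1* placed there cannot be told apart in these counts.

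**Figure D1:**
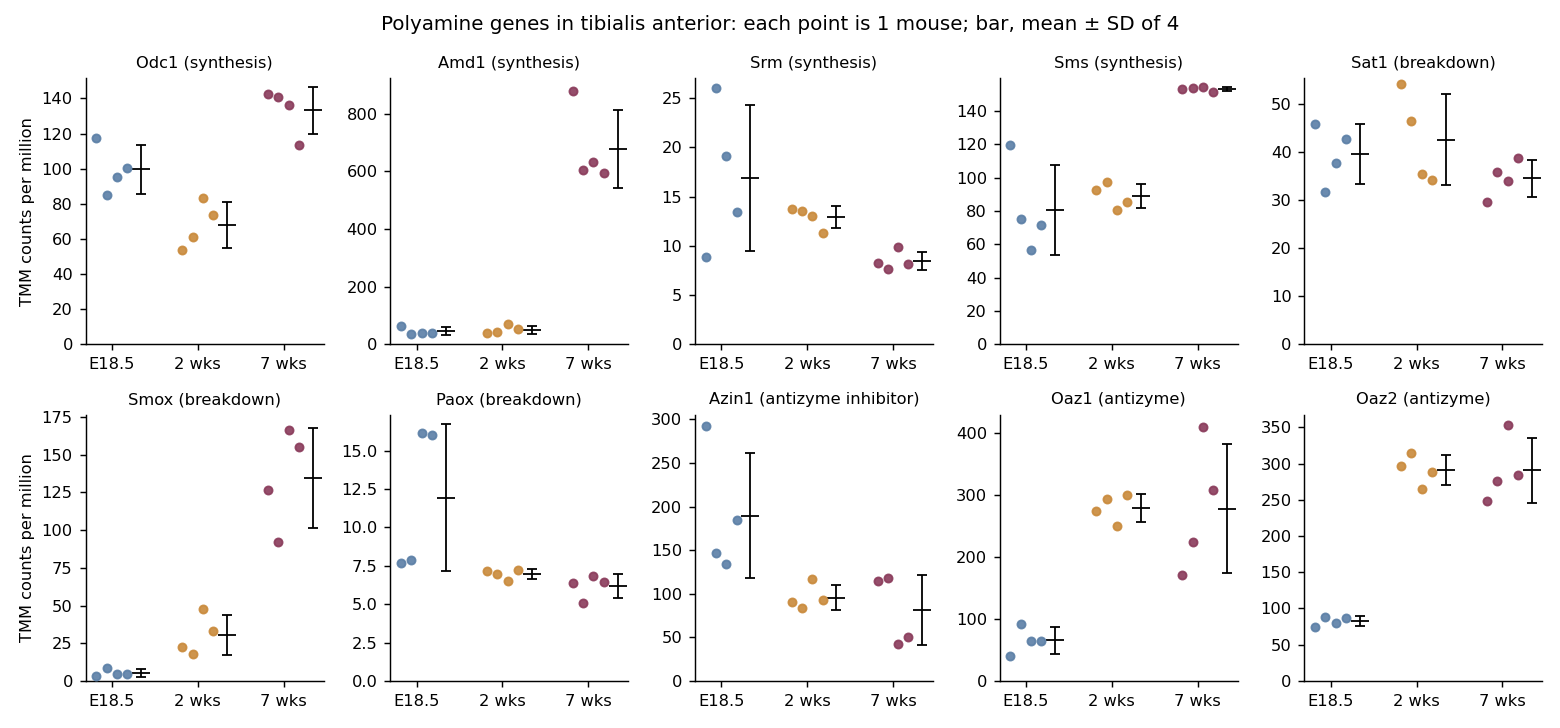
TMM-normalized CPM of the 10 polyamine genes (vertical axes, each from 0) in every library at E18.5, 2 wks and 7 wks, where each point is 1 mouse and the bar gives the mean ± SD of 4. *Amd1* stood at 593 to 880.3 CPM at 7 wks and at no more than 69.4 before, while *Oaz1* and *Oaz2* reached their later level by 2 wks.

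*Odc1*, the first enzyme of the pathway, fell to 2 wks and rose from 2 to 7 wks. It stood at 118, 84.8, 95.1 and 100.6 CPM in the E18.5 libraries, 53.8, 60.8, 83.2 and 73.5 in those of 2 wks and 143, 141, 136 and 114 in those of 7 wks. No 2 wks library reached the lowest of either other age, and 15 of the 16 pairs of 1 mouse at E18.5 and 1 at 7 wks were higher at 7 wks. The log2 fold change was -0.55 ± 0.16 to 2 wks (edgeR, adjusted p = 0.00806; -1.155 with the GC trend removed and -1.495 with total count scaling) and 0.97 ± 0.16 from 2 to 7 wks (adjusted p = 0.000916). The interval changes differed by 1.53 ± 0.29 (adjusted p = 0.0015). From E18.5 to 7 wks the net value of 0.42 ± 0.16 (adjusted p = 0.0305) was not stable. Scaled to the total count it turned to -0.86, a called fall (adjusted p = 8.78e-05). With the GC trend removed it was -0.08 (adjusted p = 0.732). DESeq2, upper-quartile scaling, both other filters and the fit of 8 libraries gave adjusted p between 0.0566 and 0.343. Without E18.5 replicate 2, 3 or 4 or 7 wks replicate 1 or 2 its adjusted p was between 0.0531 and 0.0761.

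*Sms* rose late and *Srm* ended lower. *Sms*, which makes spermine, had 119, 75.00, 56.3 and 71.2 CPM in the E18.5 libraries, 92.4, 97.1, 80.7 and 85.2 in those of 2 wks and 153, 154, 154 and 152 in those of 7 wks, and the 7 wks libraries, within 151.6 and 154.2 CPM, lay above all others. It rose by 0.79 ± 0.19 on the log2 scale from 2 to 7 wks (adjusted p = 0.00836), a value that was 0.43 when libraries were scaled to the total count (adjusted p = 0.0966). From E18.5 to 2 wks its log2 fold change was 0.14 ± 0.19 (adjusted p = 0.526). Total count scaling turned it to -0.77, a called fall (adjusted p = 0.00214). It was 0.59 with the GC trend removed (adjusted p = 0.00483) and 0.39 without E18.5 replicate 1 (adjusted p = 0.0173). From E18.5 to 7 wks it rose by 0.93 ± 0.19 (adjusted p = 0.000603), against -0.34 when scaled to the total count (adjusted p = 0.113).

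*Srm*, which makes spermidine, had 8.86, 26.1, 19.2 and 13.4 CPM in the E18.5 libraries, 13.7, 13.5, 13.1 and 11.3 in those of 2 wks and 8.23, 7.63, 9.83 and 8.17 in those of 7 wks. Its E18.5 libraries were spread widely and the 7 wks libraries lay below those of 2 wks. It fell from E18.5 to 7 wks (-0.996 ± 0.26, adjusted p = 0.00309), whereas the steps of -0.39 ± 0.25 and -0.61 ± 0.25 gave adjusted p of 0.188 and 0.0919. Without E18.5 replicate 1, the library with the least *Srm* at that age, the first step was -0.60 (adjusted p = 0.016) and the second -0.61 (adjusted p = 0.024). The second was also called without E18.5 replicate 2 (adjusted p = 0.0394) and with only the 8 libraries of 2 and 7 wks fitted (-0.64, adjusted p = 0.00461). With the GC trend removed, the first step was -1.65 (adjusted p = 1.11e-06), the second -0.20 (adjusted p = 0.318) and both together -1.85. With total count scaling the steps were -1.32 and -0.96 (adjusted p = 0.000468 and 0.0146). *Srm* has the most GC-rich transcript of the 10 genes, at 60.2%.

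Of the enzymes that break polyamines down, *Smox* rose in both intervals. It was at 3.26, 8.64, 4.72 and 4.27 CPM in the E18.5 libraries, 22.4, 18.1, 47.9 and 32.8 in those of 2 wks and 127, 91.9, 166 and 155 in those of 7 wks, and no library overlapped with those of another age. It rose 5.80-fold to 2 wks (log2 fold change 2.54 ± 0.35, adjusted p = 2.88e-05) and 4.45-fold from 2 to 7 wks (2.15 ± 0.34, adjusted p = 0.000644), 25.8-fold in all (4.69 ± 0.38, adjusted p = 1.61e-07). The rise to 2 wks was 1.75 on the log2 scale with the GC trend removed and 1.575 with total count scaling, and that over both intervals 4.085 and 3.41. No difference between its intervals was detected (-0.38 ± 0.56, adjusted p = 0.617).

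*Paox*, the oxidase of acetylated polyamines, fell early. It had 7.71, 7.91, 16.2 and 16.01 CPM at E18.5, where the libraries formed a lower and a higher pair, 6.52 to 7.25 at 2 wks and 5.08 to 6.85 at 7 wks. Every E18.5 library lay above all later ones. The log2 fold change was -0.78 ± 0.24 to 2 wks (adjusted p = 0.0115) and -0.18 ± 0.24 from 2 to 7 wks (adjusted p = 0.623). *Sat1*, the acetyltransferase, passed the test in no comparison under TMM. It ranged from 31.6 to 45.8 CPM before birth, 34.2 to 54.0 at 2 wks and 29.5 to 38.7 at 7 wks, with log2 fold changes of 0.11 ± 0.17, -0.30 ± 0.17 and, over both intervals, -0.19 ± 0.17 (adjusted p = 0.593, 0.209 and 0.323). The first of these was 0.49 with the GC trend removed (adjusted p = 0.0204) and -0.80 with total count scaling (adjusted p = 0.00199). With total count scaling *Sat1* was also called lower from 2 to 7 wks (-0.67, adjusted p = 0.0187) and over both intervals (-1.47, adjusted p = 8.7e-06), the latter also with upper-quartile scaling (-0.44, adjusted p = 0.0382), whereas it was 0.07 with the GC trend removed.

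The antizymes rose before 2 wks, and no later change was detected in either. *Oaz1* was at 40.3, 92.1, 64.3 and 64.9 CPM in the E18.5 libraries, 274, 294, 249.6 and 299.6 in those of 2 wks and 171, 223, 410.3 and 307 in those of 7 wks. *Oaz2* was at 74.4, 88.5, 80.02 and 87.2 CPM, 296, 314, 265 and 288 CPM and 248, 276, 353 and 285 CPM at the same ages. All later libraries lay above every E18.5 library for either gene, while those of 2 and 7 wks overlapped and *Oaz1* varied most at 7 wks.

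*Oaz1* rose 4.27-fold to 2 wks (log2 fold change 2.10 ± 0.28, adjusted p = 2.15e-05) and *Oaz2* 3.52-fold (1.82 ± 0.15, adjusted p = 3.43e-07). With the GC trend removed these values were 1.18 and 1.30, and with total count scaling 1.17 and 0.89, all past the threshold. From 2 to 7 wks the log2 fold changes were -0.01 ± 0.27 and -0.00 ± 0.14 (adjusted p = 0.988 and 0.995). The later change was lower than the earlier one in *Oaz1* (by 2.10 ± 0.45, adjusted p = 0.00303) and *Oaz2* (by 1.82 ± 0.24, adjusted p = 0.00013).

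*Azin1*, the antizyme inhibitor, fell as the antizymes rose. It had 292, 147, 134 and 185 CPM in the E18.5 libraries, 90.1, 83.3, 117 and 92.4 in those of 2 wks and 115, 118, 42.6 and 50.01 in those of 7 wks, where the libraries formed a higher and a lower pair. Every E18.5 library was above all later ones. The log2 fold change was -0.99 ± 0.33 to 2 wks (adjusted p = 0.0174), but E18.5 replicate 1 held the highest value, and without it the value was -0.70 (adjusted p = 0.0717). With the GC trend removed it was -0.46 (adjusted p = 0.0916). From 2 to 7 wks it was -0.23 ± 0.33 (adjusted p = 0.633), and over both intervals -1.22 ± 0.33 (adjusted p = 0.00463).

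Counted over the 9 tested genes, 3 rose (*Smox*, *Oaz1*, *Oaz2*) and 3 fell (*Odc1*, *Paox*, *Azin1*) from E18.5 to 2 wks, beside 65.7% of all tested genes called. With total count scaling the counts were 3 higher and 6 lower, beside 2550 and 11923 of all 19276 genes. Without the GC trend they were 5 higher and 3 lower, beside 5171 and 7637. From 2 to 7 wks 3 rose (*Odc1*, *Sms*, *Smox*), beside 27.5% of all genes called, 13.5% higher and 13.9% lower. With total count scaling 2 rose and 2 fell, beside 948 and 5392 of all genes. Neither the main edgeR fit with TMM nor DESeq2 called a member lower in that interval, where 1 (*Srm*) had an unadjusted p under 0.05 in the edgeR fit. With total count scaling edgeR called *Srm* and *Sat1* lower, and *Srm* also in other settings given above. From E18.5 to 7 wks 8 of the 9 were called, 5 higher and 3 lower, all but *Sat1*, beside 71.4%, 34.3% higher and 37.1% lower. Total count scaling gave 3 higher and 5 lower here, beside 2291 and 13297 of all genes. Removal of the GC trend gave 4 and 3, beside 6180 and 8232. The intervals differed in 3 of the 9 (*Odc1* with the higher later change, *Oaz1* and *Oaz2* with the lower), beside 38.4% of all genes, 16.8% with a higher and 21.6% with a lower later change. The shares of all genes are the background, and nothing particular to the pathway is read from the counts of 9 genes. The median log2 fold change of the 9 was 0.11 to 2 wks and -0.01 from 2 to 7 wks, beside -0.09 and -0.03 over all tested genes. Adjusted p under a threshold of a log2 fold change beyond 1 left *Smox*, *Oaz1* and *Oaz2* to 2 wks and *Smox* from 2 to 7 wks.

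**Figure D2:**
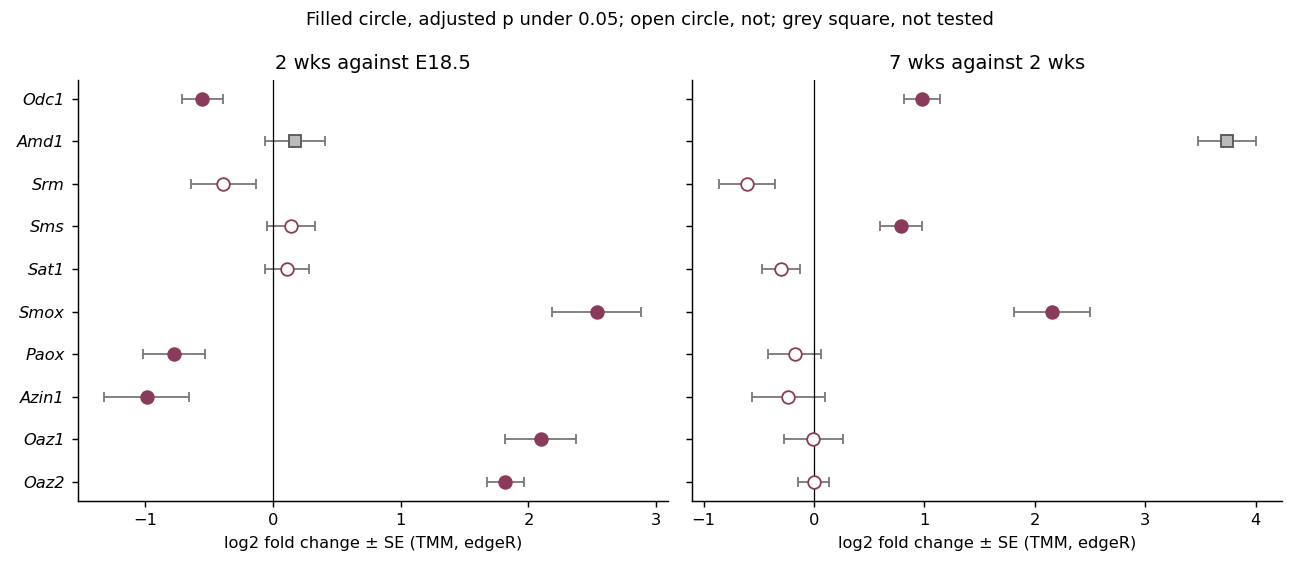
Log2 fold changes with SE (horizontal axis) of the 10 genes from E18.5 to 2 wks, left, and from 2 to 7 wks, right, from the edgeR fit with TMM. Filled circles passed an adjusted p of 0.05, open circles did not, and the grey square is *Amd1*, which was not tested. *Smox* lay at 2.54 and 2.15, *Oaz1* at 2.10 and -0.01.

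**Figure D3:**
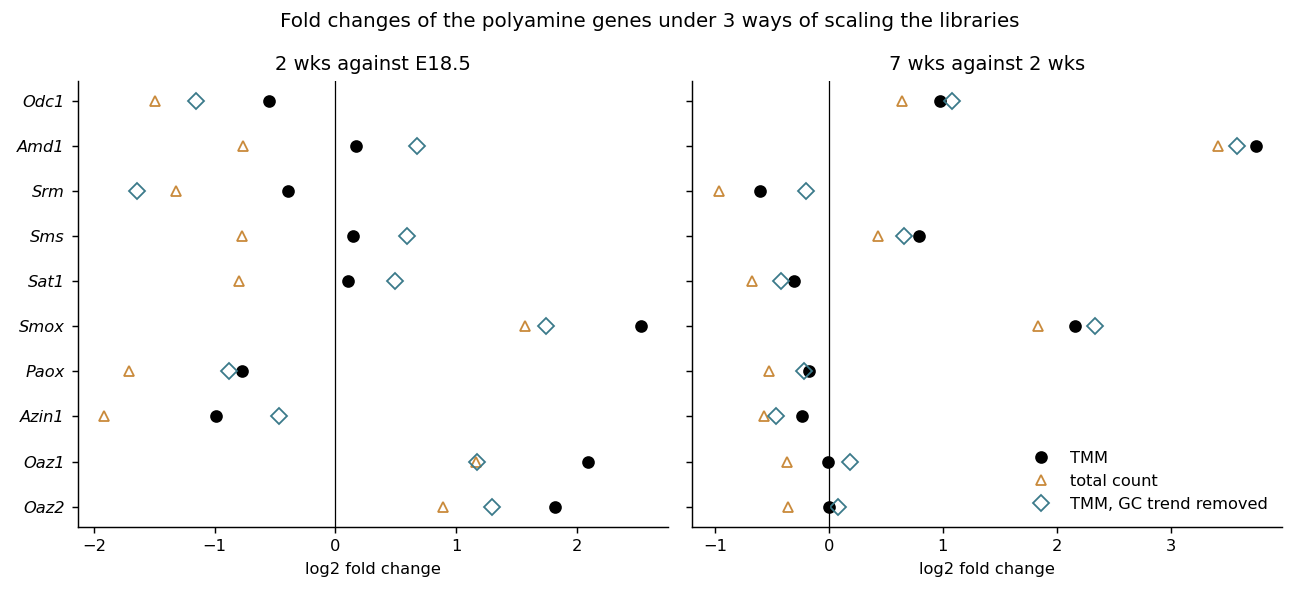
Log2 fold changes of the 10 genes (horizontal axis) in the same intervals with TMM, with scaling to the total count and with each library's GC trend removed. In the earlier interval *Sms* lay at 0.14, -0.77 and 0.59 under the 3 scalings and *Oaz1* at 2.10, 1.17 and 1.18.

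Levels of different genes were compared as TMM CPM per kb of the canonical transcript. At E18.5 the order of the mean levels was *Oaz1* (62.6 ± 20.3 CPM per kb, SD, n = 4), *Oaz2* (44.1 ± 3.51), *Odc1* (43.0 ± 5.95), *Azin1* (35.9 ± 13.6) and *Sat1* (33.8 ± 5.32), whose ranges overlapped from each to the next. Below them came *Sms* (21.6 ± 7.29), *Srm* (12.4 ± 5.47) and *Amd1* (11.6 ± 3.38), which overlapped likewise, *Sms* also with *Sat1*, and then *Paox* (2.55 ± 1.02) and *Smox* (1.44 ± 0.65), which overlapped with each other but with no other gene.

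At 2 wks *Oaz1* (268 ± 21.7 CPM per kb) stood above *Oaz2* (155 ± 10.9) and *Oaz2* above the rest without overlap. *Sat1* (36.4 ± 8.07), *Odc1* (29.3 ± 5.67), *Sms* (23.8 ± 1.96), *Azin1* (18.1 ± 2.76), *Amd1* (13.1 ± 3.64), *Srm* (9.49 ± 0.812) and *Smox* (8.34 ± 3.65) followed, each overlapping with the next, and *Paox* (1.49 ± 0.0704) was lowest. At 7 wks *Amd1* (175 ± 35.2 CPM per kb) had moved up between *Oaz1* (266 ± 100.1) and *Oaz2* (155 ± 23.7), whose ranges it overlapped. *Odc1* (57.6 ± 5.82) stood apart above *Sms* (41.1 ± 0.314), *Smox* (37.1 ± 9.12) and *Sat1* (29.5 ± 3.28), and *Azin1* (15.4 ± 7.71), *Srm* (6.23 ± 0.702) and *Paox* (1.32 ± 0.163) were each below the last without overlap.

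**Figure D4:**
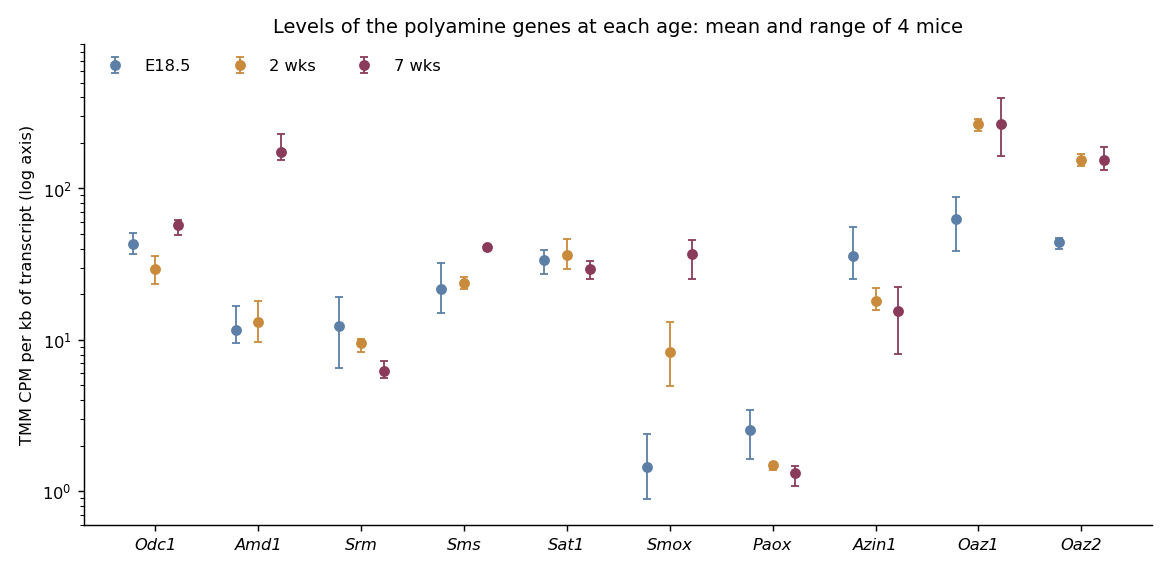
Mean level (points) and range (bars) over 4 mice of each gene in TMM CPM per kb of transcript, on a log axis, at E18.5, 2 wks and 7 wks. *Amd1* moved from 11.6 and 13.1 to 175, beside the antizymes *Oaz1* (266) and *Oaz2* (155).

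Ratios of genes within a library do not depend on how libraries are scaled, and 4 of them pair proteins that act on each other or at successive or parallel steps. Each was compared between ages by a two-sided exact permutation test of the log2 ratio over the 70 regroupings of 4 mice against 4, whose smallest p is 0.0286, with 12 tests adjusted together by the Benjamini-Hochberg method. The ratio of *Odc1* to its antizyme *Oaz1*, per kb, was 1.32, 0.415, 0.668 and 0.700 in the E18.5 libraries, 0.0884, 0.0934, 0.150 and 0.111 in those of 2 wks and 0.377, 0.284, 0.150 and 0.167 in those of 7 wks. It was 6.57-fold lower at 2 wks than at E18.5 and still 3.13-fold lower at 7 wks (either exact p = 0.0286, adjusted 0.0381), and no E18.5 library overlapped with the later ones. Between 2 and 7 wks it was 2.10-fold higher at 7 wks (exact p = 0.0571, adjusted 0.0686) in 15 of 16 pairs of mice.

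The ratio of *Azin1* to *Oaz1* was 1.44, 0.316, 0.413 and 0.564 in the E18.5 libraries, 0.0649, 0.0561, 0.0925 and 0.0610 in those of 2 wks and 0.133, 0.105, 0.0205 and 0.0322 in those of 7 wks. It fell 8.47-fold to 2 wks and was 10.4-fold below E18.5 at 7 wks (either exact p = 0.0286, adjusted 0.0381), and between 2 and 7 wks the test gave exact p = 0.657. The 2 wks and 7 wks libraries overlapped. *Oaz1* and *Azin1* differ in GC content (56.7 and 41.2%), and the GC slopes given above moved with these ages as well, E18.5 replicate 1 being highest in this ratio and in that of *Odc1* to *Oaz1*. Their part in the ratios was not tested.

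*Sms* over *Srm*, the later over the earlier synthase, was 4.91, 1.05, 1.07 and 1.93 in the E18.5 libraries, 2.45, 2.61, 2.25 and 2.75 in those of 2 wks and 6.78, 7.34, 5.70 and 6.75 in those of 7 wks. It was 2.64-fold higher at 7 wks than at 2 wks and 3.67-fold higher than at E18.5 (either exact p = 0.0286, adjusted 0.0381), without overlap. From E18.5 to 2 wks the exact p was 0.314, and without E18.5 replicate 1, again the highest library, 0.0286. *Sms* and *Srm* differ in GC content as well (43.5 and 60.2%), and with the GC trend removed the fitted values to 2 wks were 0.59 for *Sms* and -1.65 for *Srm*, against 0.14 and -0.39. *Smox* over *Paox*, the oxidase of free spermine over that of acetylated polyamines, was 0.545, 1.41, 0.376 and 0.344, 4.02, 3.35, 9.48 and 5.84 and 25.6, 23.3, 31.3 and 31.1 at the 3 ages. It was 9.30-fold higher at 2 wks than at E18.5 and a further 5.29-fold higher at 7 wks (either exact p = 0.0286, adjusted 0.0381), and no ages overlapped.

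With 3 mice against 4 in place of 4 against 4, some of these tests no longer passed. Without E18.5 replicate 1, 3 or 4 or 7 wks replicate 2, 3 or 4, the exact p of *Odc1* over *Oaz1* at 7 wks against E18.5 was 0.0571. The same p came for *Azin1* over *Oaz1* at 7 wks against E18.5 without E18.5 replicate 1, for *Sms* over *Srm* at 7 wks against E18.5 without any 1 of the 7 wks libraries, and for *Smox* over *Paox* at 2 wks against E18.5 without 2 wks replicate 3. *Odc1* over *Oaz1* from 2 to 7 wks gave 0.0286 without 7 wks replicate 3.

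As a description, *Amd1* over *Odc1* stood at 0.267 ± 0.0426 (SD, n = 4), 0.443 ± 0.0384 and 3.04 ± 0.490 in order of age, and *Amd1* over *Sms* at 0.551 ± 0.0923, 0.563 ± 0.201 and 4.27 ± 0.853. The antizyme pair kept closer to itself: *Oaz2* over *Oaz1* was 0.752 ± 0.206, 0.581 ± 0.0304 and 0.623 ± 0.153 at the 3 ages.

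**Figure D5:**
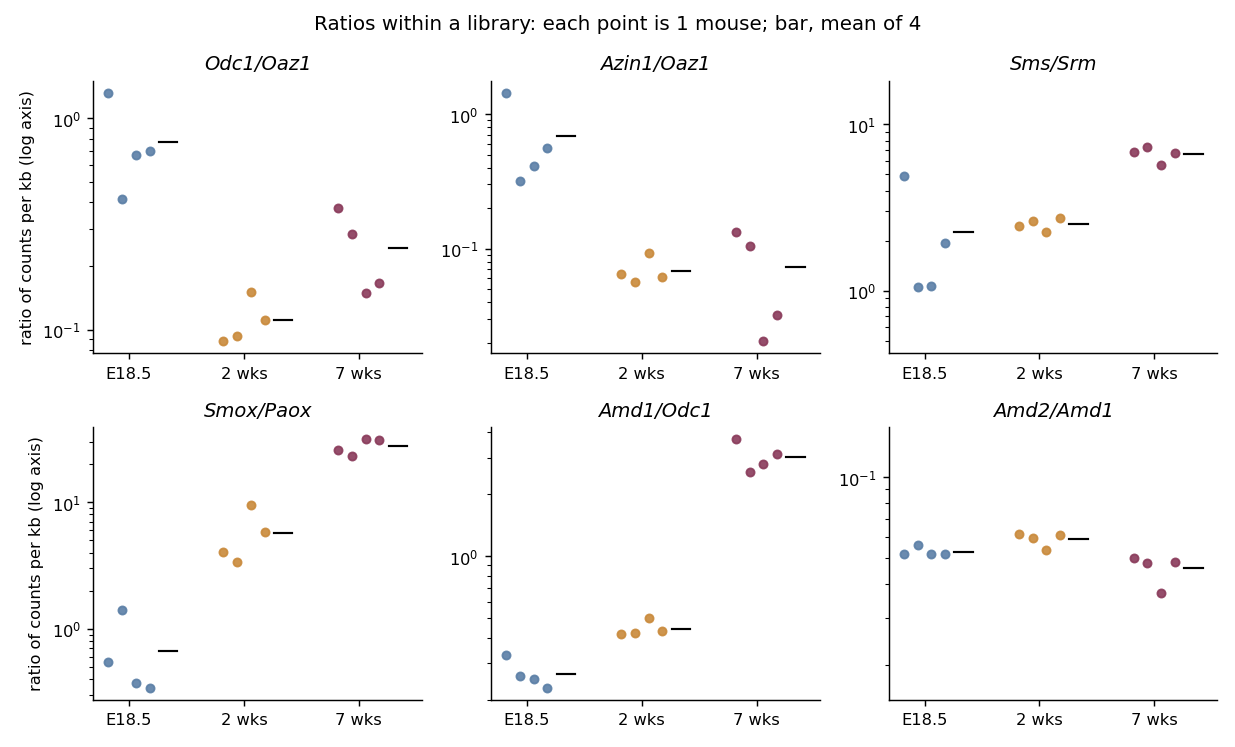
Ratios of counts per kb within each library (vertical axes, log scale) for 6 pairs of genes at E18.5, 2 wks and 7 wks, where each point is 1 mouse and the bar the mean of 4. *Smox* over *Paox* went from a mean of 0.669 to 27.8, while *Amd2* over *Amd1* stayed between 0.0372 and 0.0614.

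Of the 4088 tested genes whose mean log2 CPM was 5 or more, the 5 whose log2 CPM followed that of *Amd1* most closely over the 12 libraries were *Mss51* (Pearson's r = 0.988), *Setd3* (0.980), *Rprd1b* (0.979), *Cog6* (0.977) and *Zfp652* (0.977). With 3 ages, such an r mainly says that a gene was level before 2 wks and higher at 7 wks. *Mss51*, a mitochondrial protein gene of skeletal muscle, went from 8.74 ± 1.93 and 10.01 ± 1.75 CPM to 449 ± 168 (SD, n = 4), while *Rprd1b* rose from 43.4 ± 3.54 at 2 wks to 61.8 ± 1.11. The r of the other polyamine genes with *Amd1* was 0.884 for *Sms*, 0.835 for *Smox*, 0.776 for *Odc1*, 0.499 for *Oaz2*, 0.429 for *Oaz1*, -0.491 for *Sat1*, -0.492 for *Azin1*, -0.553 for *Paox* and -0.753 for *Srm*.

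The genes around the pathway were read from 6 lists holding 41 genes, of which 34 had enough reads to test (*Arg2*, *Mat1a*, *Atp13a4*, *Oaz3*, *Satl1* and *Aoc1* were among those that did not). To 2 wks 15 rose and 6 fell, beside 31.5% and 34.2% of all tested genes. With total count scaling 4 rose and 18 fell, beside 2550 and 11923 of all 19276 tested genes. Once the GC trend was removed 18 rose and 11 fell, beside 5171 and 7637 of all genes. In the later interval 8 rose and 4 fell, beside 13.5% and 13.9%. With total count scaling 4 rose and 5 fell, beside 948 and 5392 of all genes. With the GC trend removed 7 rose and 6 fell, beside 3289 and 3172. The median log2 fold change of the 34 with TMM was 0.45 to 2 wks and -0.07 from 2 to 7 wks, beside -0.09 and -0.03 over all genes.

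Spermidine is used to make hypusine, a modified lysine of the translation factor eIF5A, by deoxyhypusine synthase (DHPS) and deoxyhypusine hydroxylase (DOHH). All 4 genes of this list were called to 2 wks, 3 higher and 1 lower, beside 65.7% of all tested genes. *Eif5a* rose from 172 ± 39.4 CPM (SD, n = 4) to 357 ± 21.0, by 1.05 ± 0.19 on the log2 scale (adjusted p = 0.000266), which was 0.12 with total count scaling (adjusted p = 0.58) and 0.31 with the GC trend removed (adjusted p = 0.0269). *Dohh* rose from 0.535 ± 0.246 to 3.40 ± 1.08 CPM (2.66 ± 0.44, adjusted p = 0.000125; 1.72 with total count scaling and 1.19 with the GC trend removed), and *Dhps* from 8.29 ± 1.17 to 15.2 ± 0.903 CPM (0.88 ± 0.16, adjusted p = 0.000366), though *Dhps* stood at -0.06 with total count scaling and at 0.01 with the GC trend removed. *Eif5a2* fell by 1.14 on the log2 scale (SE 0.30, adjusted p = 0.00419), or by 0.60 once the GC trend was removed. From 2 to 7 wks *Dhps* rose again, to 22.8 ± 4.84 CPM (0.58 ± 0.16, adjusted p = 0.0178), a value of 0.23 with total count scaling (adjusted p = 0.317), and its adjusted p was 0.0564 and 0.0501 without 2 wks replicate 1 or 2.

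Of 6 tested genes of ornithine and arginine supply, 1 rose and 2 fell to 2 wks, and 2 rose and 2 fell from 2 to 7 wks. The shares called over all tested genes were 65.7% and 27.5%. *Arg1*, which makes ornithine from arginine, fell to 2 wks (-2.68 ± 0.77, adjusted p = 0.00735) at very low counts, 3 to 8 reads at 2 wks and 21, 49, 268 and 27 in the E18.5 libraries. Without E18.5 replicate 3, which held the 268, the value was -1.37, still past the threshold. *Slc7a1*, an arginine importer, fell in both intervals (-1.32 ± 0.28 and -0.93 ± 0.28, adjusted p = 0.000835 and 0.0229), though the later fall was not called without replicate 3 or 4 of 2 or 7 wks (adjusted p between 0.0518 and 0.0667). *Oat*, which uses ornithine, rose to 2 wks (1.23 ± 0.15, adjusted p = 9.43e-06), a value of 0.28 with total count scaling (adjusted p = 0.102). Its later value of 0.46 ± 0.15 (adjusted p = 0.0293) was not called with total count scaling (0.12), upper-quartile scaling (0.36), no filter (0.45) or the GC trend removed (0.36), nor without replicate 1, 2 or 4 of 2 or 7 wks (adjusted p between 0.0520 and 0.104). *Agmat*, an agmatine hydrolase gene, fell from 2 to 7 wks (-3.69 ± 0.67, adjusted p = 0.00162), also at very low counts. Its 2 wks libraries held 68, 72, 11 and 15 reads and those of 7 wks 2 to 4.

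Of 9 tested genes that supply S-adenosylmethionine or salvage the methylthioadenosine left by SRM and SMS, 4 rose and 1 fell to 2 wks and 2 rose thereafter. Over all tested genes, 65.7% and 27.5% were called in these intervals. *Adi1*, of the salvage route, had the second largest later rise on the 6 lists (1.43 ± 0.19, adjusted p = 0.000223), after a log2 fold change of 0.45 ± 0.19 to 2 wks (adjusted p = 0.0533), which was 0.63 with the GC trend removed (adjusted p = 0.00707) and -0.51 with total count scaling (adjusted p = 0.017). *Mtap*, which opens that route, fell to 2 wks (-1.27 ± 0.16, adjusted p = 1.5e-05). Of 7 tested genes of polyamine transport, 3 rose and 2 fell to 2 wks, beside the same 65.7% of all tested genes. *Gpc1*, a glypican that carries polyamines in, rose (2.34 ± 0.28, adjusted p = 8.38e-06; 1.70 with the GC trend removed and 1.39 with total count scaling), and *Atp13a3*, a polyamine pump, fell (-1.49 ± 0.26, adjusted p = 0.000194). *Atp13a2* of the same list went the other way and rose (2.07 ± 0.38, adjusted p = 0.000304). From 2 to 7 wks 0 of these 7 were called by edgeR at the adjusted threshold, 0 at an unadjusted p under 0.05 and 0 by DESeq2. Beside this, edgeR called 27.5% of all tested genes, and nothing particular to transport is read from 7 genes.

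Of the paralogs and other polyamine enzymes, *Sat2* rose to 8.45 ± 0.932 CPM at 2 wks, against 6.13 ± 0.572 CPM (SD, n = 4) before birth (0.46 ± 0.16, adjusted p = 0.0195). With total count scaling the value was -0.46, a called fall (adjusted p = 0.0332). The rise of *Sat2* was not called with upper-quartile scaling, with either other filter or without 2 wks replicate 2 (adjusted p between 0.0556 and 0.096). *Azin2*, another antizyme inhibitor, was at 1.21 ± 0.613, 1.78 ± 0.363 and 1.99 ± 0.797 CPM at the 3 ages (0.56 ± 0.39 and 0.16 ± 0.39, adjusted p = 0.22 and 0.788), the first of these being -0.67 with the GC trend removed (adjusted p = 0.0294). *Amd2* is counted among the 8 that rose from 2 to 7 wks, which are 7 without it. Since 72.9% of its 100-base stretches are shared with *Amd1*, its counts may hold reads of *Amd1*. Its call may thus draw on the values that *Amd1* was selected on and supports nothing.

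Transcription factors named in work on these genes went different ways. *Mxi1*, a MYC antagonist, went from 18.6 ± 1.37 (SD, n = 4) to 30.2 ± 2.09 and 63.6 ± 9.93 CPM (0.70 ± 0.13 and 1.08 ± 0.13, adjusted p = 0.000433 and 0.000122), the first of these being -0.23 with total count scaling. *Myc*, known to switch on *Odc1*, fell from 2 to 7 wks (-1.51 ± 0.31, adjusted p = 0.00307), from 7.10 ± 3.05 to 2.49 ± 0.8292 CPM, and *Mycn* fell likewise (-1.66 ± 0.29, adjusted p = 0.00134). *Max*, the partner of MYC, had 24.2 ± 2.32, 33.9 ± 4.71 and 36.8 ± 7.62 CPM (0.49 ± 0.16 and 0.12 ± 0.16, adjusted p = 0.0152 and 0.611). The first value was -0.44 with total count scaling, a called fall (adjusted p = 0.0353). That first rise was not called with upper-quartile scaling or where 10 counts were asked of every library (adjusted p = 0.0655 and 0.0517).

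Counting could mix some of these genes with others. Besides *Amd1*, 23.8% of the 100-base stretches of *Oaz1* transcripts are found in another gene (*Oaz1-ps* and *Gm68058*), 13.5% of those of *Sms* (*Sms-ps* and *Gm6292*), 13% of *Paox* (*Gm19680* and *Echs1*), 6.61% of *Odc1*, 6.41% of *Azin1* and between 0.589 and 2.18% of the remaining 4. On GRCm39 the antisense genes *Gm59592*, *Gm30679*, *Gm49077*, *Gm68058* and *Echs1* overlap *Odc1*, *Smox*, *Azin1*, *Oaz1* and *Paox*. The library kit keeps the strand, but whether the counting used it is not given in the sources used here.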

How the data were processed

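RNA of TA muscle of 12 WT mice was sequenced as paired 100-base reads after TruSeq Stranded mRNA library preparation. The authors deposited whole, unscaled counts of reads, 1 row for each Ensembl gene. Per the submitters' processing notes, the authors used bcl2fastq 2.17.1.14, cutadapt 1.10, STAR 2.5.3a and HTSeq 0.6.1p1 with the build mm10. The paper's methods name GRCm39 instead, and the strand setting and annotation of the counting are not given in the sources used here. The counts carry no coordinates. Those of genes come from GENCODE vM39 on GRCm39, which held 51477 of the 55450 identifiers (the other 3973 took 0.0394% of the counts), and those of promoter windows from RefSeq on GRCm38.p6. All per-sample columns were used.

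After TMM scaling, 1 quasi-likelihood model was fitted in R 4.3.3 to all 12 libraries with edgeR 4.0.16, which calls limma 3.58.1, and age was its sole term. filterByExpr left 19276 genes, and p-values were adjusted over all of them (Benjamini-Hochberg) and called under 0.05. The biological coefficient of variation was 0.279, well above counting error at these depths. Printed CPM are TMM-scaled, and levels between genes are per kb of the canonical transcript. SE of fold changes were derived from the F statistic. Tables, sequences and figures were handled with Python 3.11.15, pandas 2.3.3, biopython 1.88 and matplotlib 3.10.9.

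The members, lists and tests were chosen with earlier results of these data known. Named were the 10 members, the 3 largest rises and falls per interval on the 6 lists, the lists of paralogs and of transcription factors, *Eif5a*, *Dhps* and *Dohh*, the 5 genes most like *Amd1*, any marker gene, and genes that share reads with a member. Some genes of the lists are counted in them but not reported here by name. *Oat*, *Mtap*, *Eif5a2* and *Atp13a2* were singled out after their values were seen. Alternatives were other scalings, DESeq2 1.42.0, other filters, a replicate block, removal of the GC trend (GC known for 98.7% of genes), a log2 fold change beyond 1, only the 8 libraries compared, and each library left out.

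The fits were tested on simulated data with known changes. A GC trend was set in the simulated 2 wks libraries alone, with a slope not matched to the real ones. It gave 1058 false calls, against 5 once it was removed. The main calls reported here come from the fit without this removal. Replicates differed by more than counting error in every pair, so none were copies. Each sample is a separate mouse per the labels. No batch is labelled.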

Additional observations from a re-analysis of the deposited data

Results flagged for a closer look

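In 2 of the 30 sets of 4 libraries (10 genes at 3 ages), a single library lay well apart from the rest, and chance would give this in about 1.5 sets. Both were of *Amd1*, and replicate 1 was the highest each time. At E18.5 it had 64.5 CPM, against 36.9 to 39.96 CPM in the others. At 7 wks it had 880.3 CPM, against 593 to 634 CPM. Without the E18.5 library, the log2 fold change of *Amd1* from E18.5 to 2 wks was 0.40 in place of 0.17. Without the 7 wks library, that from 2 to 7 wks was 3.59 in place of 3.74. E18.5 replicate 1 was also the library with the steepest GC slope at that age (-1.11 per 10 percentage points), and 7 wks replicate 1 had the lowest slope at its own (-0.17). The transcript of *Amd1* is 41.5% GC. The part of the slope in these values was not tested.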

How the results depend on the processing

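Of the values of the 9 tested polyamine genes with 1 library left out, 352 kept their direction and their side of the threshold, 10 turned, 4 gained and 6 lost a call. Under the other settings 267 kept both, 12 turned, 9 gained and 18 lost a call. Requiring a log2 fold change beyond 1 left 3, 1 and 3 of the 9 members called to 2 wks, from 2 to 7 wks and from E18.5 to 7 wks, 7 and 2 of the pathway genes in the first 2 of these, and 5507, 561 and 7574 of all genes, with 2463 differing between the intervals, a stricter test by its construction. With total count scaling 5 members differed between the intervals (*Odc1*, *Sms*, *Paox*, *Oaz1* and *Oaz2*), and with the GC trend removed also 5 (*Odc1*, *Srm*, *Sat1*, *Oaz1* and *Oaz2*), in place of 3. Of all genes, 8430 and 6607 differed under these settings, in place of 7398. Total count scaling turned the log2 fold change to 2 wks of *Sms* (-0.77), *Sat1* (-0.80), *Azin2* (-0.39), *Sat2* (-0.46), *Max* (-0.44), *Mxi1* (-0.23), *Dhps* (-0.057) and *Adi1* (-0.51), that from 2 to 7 wks of *Azin2* (-0.19) and *Max* (-0.24), and that from E18.5 to 7 wks of *Odc1* (-0.86) and *Sms* (-0.34), where the median of all genes shifts as given above. It also turned the difference of intervals of *Smox* (0.26). Among these turned values, those of *Sms*, *Sat1*, *Sat2*, *Max* and *Adi1* to 2 wks and of *Odc1* from E18.5 to 7 wks were called lower. Removal of the GC trend turned *Azin2* to 2 wks (-0.67), *Oaz1* and *Oaz2* from 2 to 7 wks (0.19 and 0.079), *Odc1* and *Sat1* from E18.5 to 7 wks (-0.076 and 0.070) and the difference of *Smox* (0.59). *Sat1* to 2 wks was -0.029 with upper-quartile scaling and -0.013 where 10 counts were asked of every library. The cause of these turns was not tested.

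With 1 library left out, values ranged from -7.77e-05 to 0.39 for *Sms* to 2 wks, and from 2 to 7 wks from -0.26 to 0.17 for *Oaz1*, -0.11 to 0.068 for *Oaz2*, -0.064 to 0.37 for *Azin2* and -0.020 to 0.21 for *Max*, while the difference of intervals of *Smox* ranged from -0.76 to 0.23. Over all genes 3472 (without 2 wks replicate 1) to 6145 (without E18.5 replicate 1) were called from 2 to 7 wks, in place of 5296. On the log2 scale, *Odc1* over *Oaz1* ranged from 0.83 to 1.27 from 2 to 7 wks and from -1.91 to -1.35 from E18.5 to 7 wks, and *Azin1* over *Oaz1* from -0.71 to 0.18 and from -3.80 to -2.90. *Sms* over *Srm* ranged from 0.21 to 0.96 to 2 wks and from 1.61 to 2.36 over both intervals, and *Smox* over *Paox* from 2.93 to 3.66 to 2 wks.

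Libraries with the same replicate number were not otherwise paired (correlations of their deviations from -0.142 to 0.284). With the replicate number as a block, 6, 3, 8 and 3 members were called in the 4 comparisons, as without it, and 22 in place of 21 pathway genes to 2 wks, the added one being *Adi1* (adjusted p = 0.0395). Of all genes, 12470, 5149, 13611 and 7287 were called with the block, in place of 12668, 5296, 13755 and 7398. Every member had at least 318 reads in each library.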
